A study of Mus musculus with 4 samples.

Results

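MHC class II molecules present peptides from endosomes and lysosomes to CD4+ T cells, and in mice the alveolar epithelial type II (AT2) cell, which makes surfactant, is known to carry them without being a professional antigen-presenting cell. An alpha and a beta chain assemble in the endoplasmic reticulum around the invariant chain, which blocks the peptide groove and directs the complex to endosomes. There proteases cut the invariant chain down to a short remnant, which the DM heterodimer exchanges for peptide. The coactivator CIITA switches the genes on through proteins bound to paired promoter elements called the X and Y boxes.

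The 8 genes described here were chosen by symbol: the chains of the I-A molecule (H2-Aa and H2-Ab1), the beta chain of I-E (H2-Eb1), the invariant chain (Cd74), the DM chains (H2-DMa, H2-DMb1 and H2-DMb2) and Ciita. All 8 were present among the 22565 protein-coding genes of the deposited table, once each. RNA was measured in AT2 cells that flow cytometry had isolated from lungs of mice aged 6 months, untreated in both groups. The KO group holds 2 libraries, of which the genotype field names a knockout of Fbxo45 for replicate 1 and of Fbxo46 for replicate 2, while the protocol names Fbxo45-cKO mice only. The WT group holds 2 libraries with the genotype WT. Fbxo45 belongs to the F-box proteins, which choose substrates for ubiquitin ligases. The sources used here do not give the promoter or Cre behind the conditional knockout, the cells in which it acts, or whether each library is its own mouse. The p-values therefore cover the scatter of these libraries alone, and that scatter may be technical. In bulk RNA, fewer cells of a type and less RNA per cell cannot be told apart.

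Depth was 9507423 and 7066419 recovered fragments in KO replicates 1 and 2, against 4167115 and 8200168 in WT replicates 1 and 2. RNA of the genes named in the labels overlapped between the groups: Fbxo45 was at 4.41 and 7.58 FPKM (fragments normalised to transcript length and library size) in the KO libraries and at 4.6 and 5.91 FPKM in the WT libraries, and Fbxo46 at 3.82 and 4.8 FPKM in the KO libraries and 4.13 and 3.79 FPKM in the WT libraries. KO below therefore means the libraries labelled KO. KO replicate 1 stood apart by fast skeletal muscle transcripts, whose 6 markers summed to 913 FPKM there, against 7.15 FPKM in KO replicate 2 and 0.159 and 8.27 FPKM in the WT libraries. All 12 AT2 markers were detected. Their sum, mostly Sftpc, was 85505 and 121971 FPKM in the KO libraries, against 135236 and 129208 FPKM in the WT libraries. Markers of AT1 and club cells were detected too, at the lower sums given below.

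Most of the family lies in the mouse MHC on chromosome 17. On GRCm38 (mm10), as annotated in GENCODE M21, H2-DMa spans 34119541 to 34139101, H2-DMb2 34143307 to 34151555, H2-DMb1 34153072 to 34160230, H2-Ab1 34257689 to 34269419 and H2-Eb1 34305867 to 34316674, all on the plus strand, and H2-Aa spans 34282744 to 34287823 on the minus strand. RefSeq promoter windows of the same assembly (GRCm38.p6), running from 250 bases before a gene's start to 50 after it, were matched for 5 of the 8 genes (not for H2-Ab1, Cd74 and Ciita). The stretches below are shown because the X and Y boxes are the shared control elements of the family. Each runs 5′ to 3′ on the gene's own strand, from 50 bases before a Y box pattern to 10 after it. Capitals mark the patterns TGATTGG (Y box, holding the inverted CCAAT letters), AAC, any 2 bases, then ATGATG (X box) and TGACGTCA (cAMP-response element), which overlapped one another in none of them.
H2-Eb1 (chr17:34305756-34305822, plus strand): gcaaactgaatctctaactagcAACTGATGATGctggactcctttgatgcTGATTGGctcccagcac
H2-DMb1 (chr17:34153078-34153144, plus strand): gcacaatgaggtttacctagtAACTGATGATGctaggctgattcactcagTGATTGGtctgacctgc
H2-DMb2 (chr17:34145107-34145173, plus strand): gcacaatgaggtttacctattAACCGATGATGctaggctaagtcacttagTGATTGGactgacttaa
H2-Aa (chr17:34287857-34287923, minus strand): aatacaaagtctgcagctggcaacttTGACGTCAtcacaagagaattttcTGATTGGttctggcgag

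Distances are to the RefSeq starts, which equal the GENCODE starts above for H2-Aa and H2-Eb1 but lie further downstream for H2-DMb1 and H2-DMb2, whose stretches are therefore inside the GENCODE spans. The Y box pattern began 50 bases before the RefSeq start in H2-Aa, 61 in H2-Eb1, 63 in H2-DMb1 and 92 in H2-DMb2. The X box pattern began 28 bases before the Y box pattern in H2-Eb1 and 29 bases before it in both H2-DMb1 and H2-DMb2. In H2-Aa these X box letters were not in the window, and the 8 letters of the cAMP-response element stood upstream of the Y box pattern. The H2-DMa windows, which belong to 2 annotated starts, held none of the X, Y or cAMP-response patterns. Searched on both strands, the Y box pattern occurred in 7.82%, the cAMP-response element in 1.79% and the X box pattern in 0.137% of all 32851 promoter windows. An X box pattern followed by a Y box pattern within 50 bases, on the same strand, occurred in 4 of the 32851 windows, those of H2-Eb1, H2-DMb1, H2-DMb2 and H2-Ob. The letters were chosen after these promoters had been read, so the overlap with class II genes is a description.

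Between KO and WT libraries, the class II family had no member past the test. Both KO values of H2-Ab1, Cd74 and H2-DMa lay below both WT values, and the other 5 genes overlapped between the groups. This pattern of both KO values below both WT values was met by 3 of the 8 genes and by 15.1% of the 11055 genes tested. Genes were tested at 1 FPKM or more in at least 2 of the 4 libraries, which all 8 class II genes met, with limma on log2(FPKM + 1), two-sided, and Benjamini-Hochberg adjustment over all genes tested. Of those 11055 genes 0 (0%) had an adjusted p under 0.05, 535 (4.84%) had an unadjusted p under 0.05, and edgeR on recovered fragments called 0 of 11705 (372, or 3.18%, before adjustment). DESeq2 called 7 of 15326 (0.0457%), none of them a class II gene. Without KO replicate 2, limma called 134 genes (1.21%), among them 0 of the 8 members, and edgeR called 1435 (11.7%), among them H2-Ab1, Cd74 and Ciita. A KO minus WT difference below 0 was seen in 6 of the 8 members, against 45.9% of all genes tested, and the members' median was -0.22 on the log2(FPKM + 1) scale, beside a median of 0.035 over all genes tested. With edgeR the same 6 of 8 were below 0, against 48.1% of all genes tested there, at a median of -0.39 on the log2 CPM scale beside 0.016 over all genes tested.

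**Figure D1:**
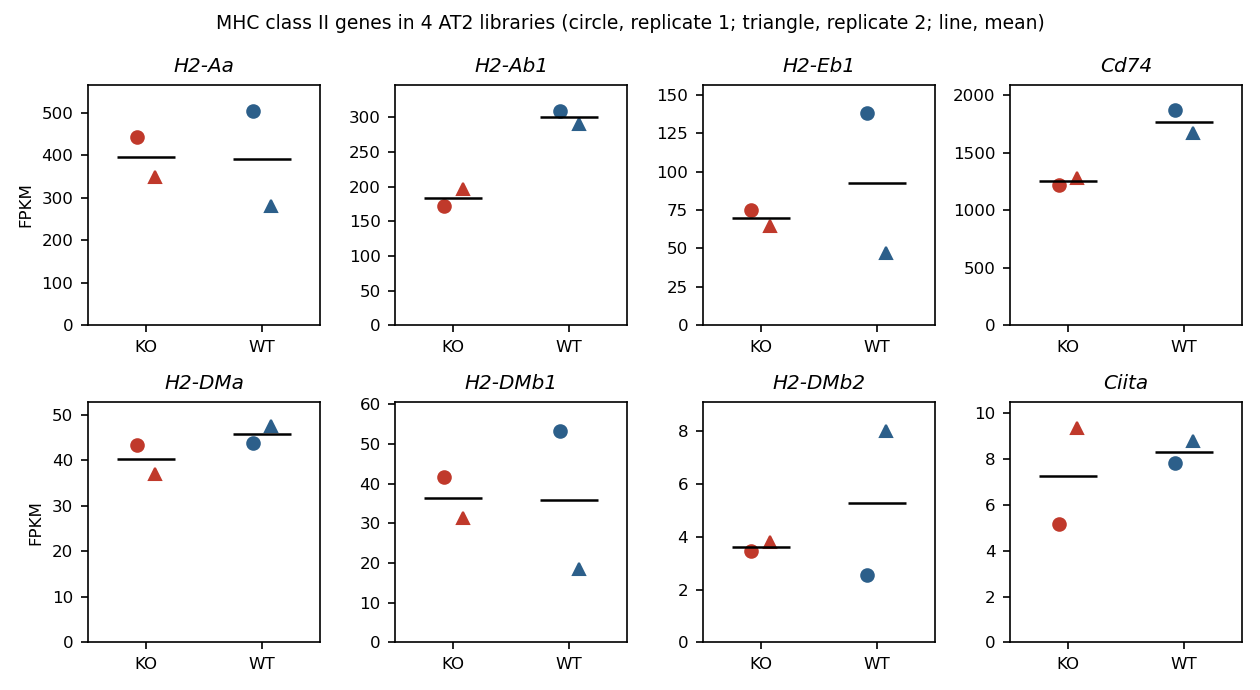
FPKM (vertical axes, linear, from 0) of the 8 class II genes in the KO (red) and WT (blue) libraries, with circles for replicate 1, triangles for replicate 2 and a line at the mean of each pair. The groups do not overlap for H2-Ab1, Cd74 and H2-DMa, and the WT libraries are far apart for H2-Aa, H2-Eb1, H2-DMb1 and H2-DMb2.

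Among the antigen-presenting chains, H2-Ab1, the I-A beta chain, stood furthest from WT. It was at 172 and 196 FPKM in the KO libraries, against 309 and 291 FPKM in the WT libraries. Each KO value was below each WT value by more than the spread within either pair, with means of 184 ± 16.9 FPKM in KO and 300 ± 13 FPKM in WT (SD, n = 2 each). The log2(FPKM + 1) difference was -0.70 (SE 0.193), with an unadjusted limma p of 0.0112 and a limma adjusted p of 0.948 over all genes. On recovered fragments H2-Ab1 had 232 CPM in both KO libraries (fragments scaled to library size, with no length correction), against 374 and 298 CPM in the WT libraries, and the edgeR log2 difference was -0.54 (SE 0.176, edgeR adjusted p = 0.999).

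Its partner, the I-A alpha chain H2-Aa, showed no such separation. H2-Aa was at 442 and 349 FPKM in the KO libraries and at 504 and 280 FPKM in the WT libraries. Both KO values lay between the WT values, and the log2(FPKM + 1) difference was 0.065 (SE 0.325, limma adjusted p = 0.988). H2-Eb1, the I-E beta chain, was at 74.8 and 64.9 FPKM in the KO libraries and at 138 and 47.2 FPKM in the WT libraries. Again the KO values lay inside the range of the WT pair, at a log2(FPKM + 1) difference of -0.21 (SE 0.485, limma adjusted p = 0.981). Without WT replicate 1 that difference was 0.55, the opposite direction, and without WT replicate 2 it was -0.98. For H2-Aa the same omissions gave 0.49 and -0.36, and leaving out KO replicate 1 gave -0.11.

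Cd74, which encodes the invariant chain and lies outside the MHC on chromosome 18 (60803848 to 60812652, plus strand), was the most abundant member in every library. It was at 1218 and 1282 FPKM in the KO libraries, against 1869 and 1671 FPKM in the WT libraries, with means of 1250 ± 45 and 1770 ± 140 FPKM (SD, n = 2 each). The groups did not overlap, and the log2(FPKM + 1) difference was -0.50 (SE 0.221), with an unadjusted limma p of 0.0655 and a limma adjusted p of 0.948. As a share of all recovered fragments, Cd74 took 0.182% and 0.163% in the KO libraries and 0.253% and 0.225% in the WT libraries. It ranked 19 and 20 among the 22565 genes by FPKM in the KO libraries, and 13 and 18 in the WT libraries. The edgeR log2 difference was -0.48 (SE 0.157, unadjusted p = 0.0218, edgeR adjusted p = 0.999).

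The DM genes, which encode the peptide editor, differed among themselves. H2-DMa, the DM alpha chain, was at 43.3 and 37 FPKM in the KO libraries, against 43.9 and 47.5 FPKM in the WT libraries. The groups did not overlap, but KO replicate 1 and WT replicate 1 lay close together, and the log2(FPKM + 1) difference was -0.18 (SE 0.201, limma adjusted p = 0.957). On recovered fragments the gap was wider: H2-DMa had 35.9 and 40.5 CPM in the KO libraries, against 52.8 and 50.7 CPM in the WT libraries, with an edgeR log2 difference of -0.45 (SE 0.203, edgeR adjusted p = 0.999). The deposited count per unit of FPKM for H2-DMa was 5.81 in KO replicate 1, against 8.23 in KO replicate 2 and 8.72 and 7.74 in the WT libraries. The annotation holds 8 H2-DMa transcripts of 350 to 2005 bases. H2-DMa also overlaps 4 other annotated genes, 3 of them on the opposite strand, among them Brd2, and the sources used here do not say whether strand was used in counting.

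H2-DMb1 and H2-DMb2 encode alternative DM beta chains and ranked the 4 libraries in opposite orders. H2-DMb1 was at 41.6 and 31.3 FPKM in the KO libraries and at 53.4 and 18.6 FPKM in the WT libraries. H2-DMb2 was at 3.45 and 3.8 FPKM in the KO libraries and at 2.56 and 8.01 FPKM in the WT libraries. For both genes the WT values enclosed the KO values, WT replicate 1 being the high one for H2-DMb1 and the low one for H2-DMb2. The log2(FPKM + 1) differences were 0.18 (SE 0.484) for H2-DMb1 and -0.29 (SE 0.473) for H2-DMb2, with limma adjusted p of 0.983 and 0.97. Leaving out WT replicate 2 gave -0.55 and 0.38, both in the opposite direction. The genes share sequence: 11.3% of the 100-base stretches of H2-DMb1 transcripts occur in H2-DMb2 transcripts, and 10.3% of those of H2-DMb2 occur in H2-DMb1, so reads could be split between them and both values are uncertain. H2-DMb1 was at 12 and 8.22 times H2-DMb2 in the KO libraries and at 20.9 and 2.32 times in the WT libraries, so the lower H2-DMb2 values are the more uncertain. None of the 100-base stretches of the other 6 genes occurred in transcripts of another gene.

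Ciita, the coactivator gene, lies on chromosome 16 (10480059 to 10528418, plus strand) and was low in absolute level. It was at 5.17 and 9.34 FPKM in the KO libraries and at 7.84 and 8.81 FPKM in the WT libraries. KO replicate 1 was the lowest and KO replicate 2 the highest of the 4, and the log2(FPKM + 1) difference was -0.22 (SE 0.323, limma adjusted p = 0.969). Without KO replicate 1 it was 0.15, the opposite direction. The deposited locus of Ciita also holds Dexi, which overlaps it on the opposite strand, and Clec16a, while H2-Aa, H2-Ab1 and H2-Eb1 share 1 deposited locus with each other.

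**Figure D2:**
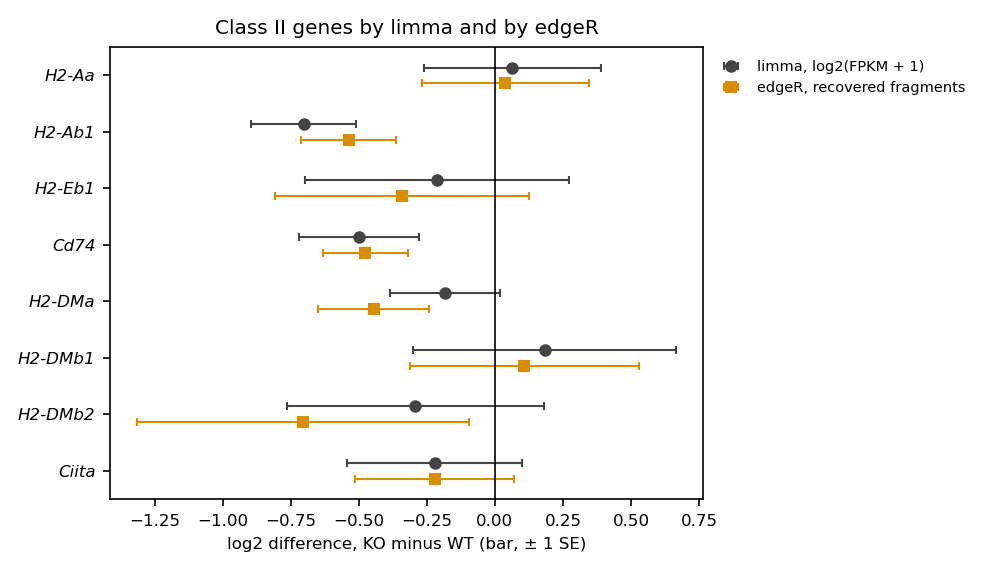
Log2 difference, KO minus WT (horizontal axis; bars, ± 1 SE), of each class II gene by limma on log2(FPKM + 1) (circles) and by edgeR on recovered fragments (squares). H2-Ab1 and Cd74 lie below 0 by more than 1 SE in both, at -0.70 and -0.50 by limma, and H2-DMa only by edgeR, at -0.45, as does H2-DMb2 at -0.71.

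**Figure D3:**
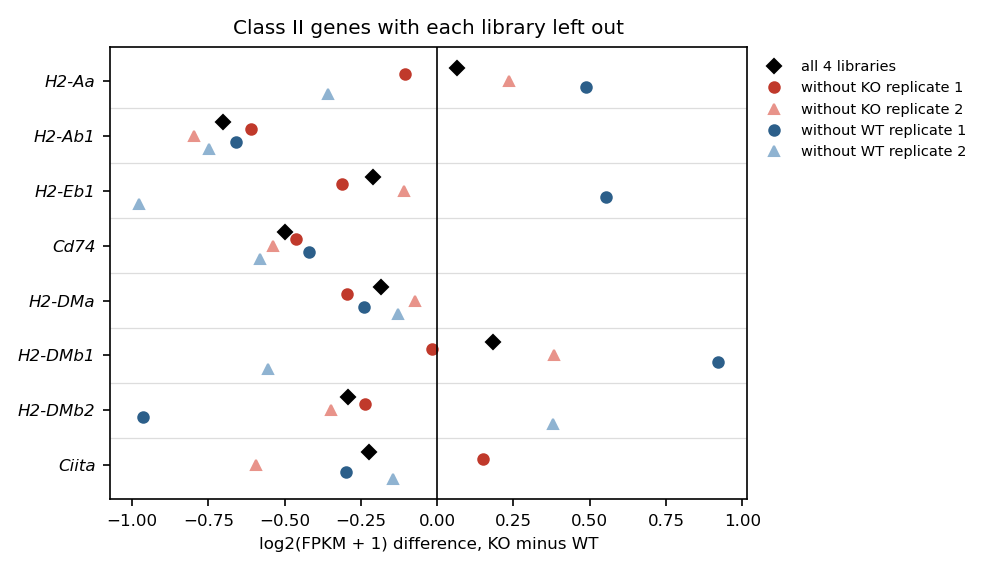
Log2(FPKM + 1) difference, KO minus WT (horizontal axis), of each class II gene with all 4 libraries (diamonds) and with each library left out. H2-Ab1, Cd74 and H2-DMa stay below 0 in every case, between -0.80 and -0.61, -0.58 and -0.42, and -0.29 and -0.073, whereas the other 5 genes take both signs. For H2-Ab1, Cd74 and H2-DMa the sign was fixed in advance, since both KO values lay below both WT values. That pattern was met by 15.1% of all genes tested.

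The WT libraries were further apart than the KO libraries in 5 of the 8 genes, by most in H2-Aa, H2-Eb1, H2-DMb1 and H2-DMb2 and by little in Cd74 (1.12 times between WT and 1.05 times between KO replicates). Between WT replicates the higher value was 1.8 times the lower for H2-Aa, 2.93 times for H2-Eb1, 2.87 times for H2-DMb1 and 3.13 times for H2-DMb2, and between KO replicates it was 1.27, 1.15, 1.33 and 1.1 times. Gaps at least this wide between the WT libraries were seen in 9.2%, 3.02%, 3.1% and 2.65% of the 11055 genes tested, and, among the 5670 genes averaging 10 FPKM or more, in 1.83%, 0.335%, 0.353% and 0.3%. The remaining members were close in WT, at 1.06 times for H2-Ab1, 1.08 times for H2-DMa and 1.12 times for Ciita.

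These gaps were wider than counting error. H2-DMb1 had 286 fragments in WT replicate 1, or 68.6 CPM (exact binomial 95% interval 60.9 to 77.1), and 225 fragments in WT replicate 2, or 27.4 CPM (24 to 31.3). H2-DMb2 had 15 fragments in WT replicate 1, or 3.6 CPM (2.01 to 5.94), and 96 in WT replicate 2, or 11.7 CPM (9.48 to 14.3). In the KO libraries H2-DMb2 had 44 and 36 fragments, or 4.63 CPM (3.36 to 6.21) and 5.09 CPM (3.57 to 7.05). H2-Eb1 had 101 and 74.2 CPM in the KO libraries, against 166 CPM (154 to 179) in WT replicate 1 and 57.1 CPM (52 to 62.5) in WT replicate 2. The intervals cover counting error only.

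H2-Aa, H2-Eb1 and H2-DMb1 ranked the libraries alike, with KO replicates 1 and 2 in the middle (replicate 1 the higher), WT replicate 1 at the top and WT replicate 2 at the bottom. H2-DMb2 ranked them in exactly the reverse order. The first order was held by 2.17% and the reverse by 1.28% of the 11055 genes tested, and the pattern was picked after the values were seen. Fibroblast and smooth muscle markers were also lowest in WT replicate 2, where all 7 summed to 15.4 FPKM, against 39.6 and 36.2 FPKM in the KO libraries and 38.8 FPKM in WT replicate 1. Their part in the result was not tested.

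Within a library, members were also compared as ratios. The H2-Aa to H2-Ab1 ratio of FPKM, alpha over beta chain of I-A, was 2.57 and 1.78 in the KO libraries, against 1.63 and 0.964 in the WT libraries. Both KO values lay above both WT values, and with 2 libraries a group an exact permutation test (two-sided) cannot give a p below 0.333. Cd74 was at 1.77 and 2.1 times the summed FPKM of H2-Aa, H2-Ab1 and H2-Eb1 in the KO libraries, and at 1.97 and 2.7 times in the WT libraries, so that the ranges overlapped. H2-DMa was at 0.963 and 1.06 times the summed DM beta chains in the KO libraries, and at 0.784 and 1.78 times in the WT libraries. The order of levels was Cd74, H2-Aa, H2-Ab1, H2-Eb1, H2-DMa, H2-DMb1, Ciita and H2-DMb2 in both KO libraries, and differed in WT replicate 1 in H2-DMb1 standing above H2-DMa. In WT replicate 2, H2-Ab1 stood above H2-Aa and H2-DMa above H2-Eb1. Neighbours whose pairs of values overlapped were H2-DMa with H2-DMb1 in KO, and H2-Aa with H2-Ab1, H2-Eb1 with H2-DMa and H2-DMb1, and Ciita with H2-DMb2 in WT, where H2-DMa with H2-DMb1 overlapped as well. All 8 genes together took 0.282% and 0.246% of recovered fragments in the KO libraries, against 0.381% and 0.307% in the WT libraries.

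**Figure D4:**
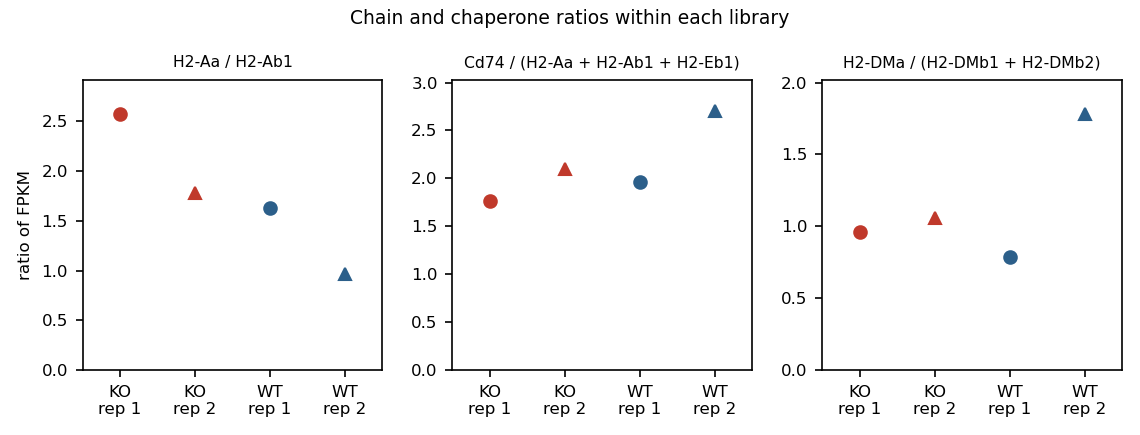
Ratios of FPKM within each library (vertical axes, linear, from 0) for the I-A chains, for Cd74 over the summed presenting chains, and for H2-DMa over the summed DM beta chains, in KO (red) and WT (blue) libraries. The I-A chain ratio is at 2.57 and 1.78 in the KO libraries and at 1.63 and 0.964 in the WT libraries, and the other ratios overlap between the groups, with WT replicate 2 the highest in each.

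Pan-leukocyte markers and most dendritic cell markers were at or near 0 in all 4 libraries, while some markers of B cells, macrophages and monocytes were detected. The part of such cells in the class II RNA was not tested. Of the 8 pan-leukocyte markers none reached 1 FPKM in any library, and their sum was 0.557 and 0.368 FPKM in the KO libraries and 0.203 and 0.322 FPKM in the WT libraries. Of the 10 dendritic cell markers 9, among them Flt3, Itgax and Clec9a, were listed at 0 in every library, and the sum of 2.11 and 1.77 FPKM in KO and 1.92 and 2.63 FPKM in WT was that of Zbtb46 alone. The B cell marker Pax5 was listed at 0, and the B cell sum of 23.7 and 17.6 FPKM in KO and 19.8 and 15.8 FPKM in WT was mostly Cd79b. Of 12 macrophage markers in the table, Marco, Siglecf and Adgre1 were listed at 0, and the sum was 20.2 and 9.94 FPKM in KO and 8.94 and 9.67 FPKM in WT, mostly Cd68. Fabp4 was at 4.57 and 1.39 FPKM in KO and 0 and 0.22 FPKM in WT (limma adjusted p = 0.948). Mertk was at 1.05 and 1.06 FPKM in KO and 1.1 and 1.29 FPKM in WT. Fabp4 lay above and Mertk below WT in both KO libraries, as did 20% and 15.1% of all genes tested. The monocyte sum, of 6 markers, was 12.3 and 26.4 FPKM in KO and 31.2 and 29.5 FPKM in WT and was almost wholly Ly6c2, while Cx3cr1, F13a1 and Ms4a6c were listed at 0. All 7 T and NK cell markers were listed at 0. Among structural cells, the 7 endothelial markers summed to 2.33 and 0.829 FPKM in KO and 1.25 and 0.545 FPKM in WT. The 8 AT1 markers summed to 972 and 630 FPKM in KO and 766 and 634 FPKM in WT, mostly Ager. By limma 4 AT1 markers lay above and 4 below 0, at a median of -0.15, while edgeR placed 2 above and 6 below 0, at -0.39. The 6 club cell markers summed to 4111 and 3816 FPKM in KO and 5524 and 4699 FPKM in WT. Both KO sums were below both WT sums for club cell markers and for the AT2 markers given above, as for Cd74, H2-Ab1 and H2-DMa. Of single genes tested by limma, 15.1% lay below WT in the same way. The AT2 sum was mostly Sftpc, at 54458 and 87684 FPKM in KO and 101544 and 94984 FPKM in WT. Of 12 AT2 markers tested by limma, 6 lay above and 6 below 0, at a median of 0.0051. On recovered fragments, edgeR placed 3 of them above and 9 below 0, at a median of -0.16. The club cell sum was mostly Cbr2, at 2973 and 3003 FPKM in KO and 4198 and 3801 FPKM in WT. Of 5 club cell markers tested by limma, 5 lay below 0, at a median of -0.34, while edgeR placed 1 above and 4 below 0, at a median of -0.21. Beside these counts of AT1, AT2 and club cell markers, 45.9% of all genes tested lay below 0 with limma and 48.1% with edgeR. The part of AT1, AT2 and club cell markers in the result was not tested.

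**Figure D5:**
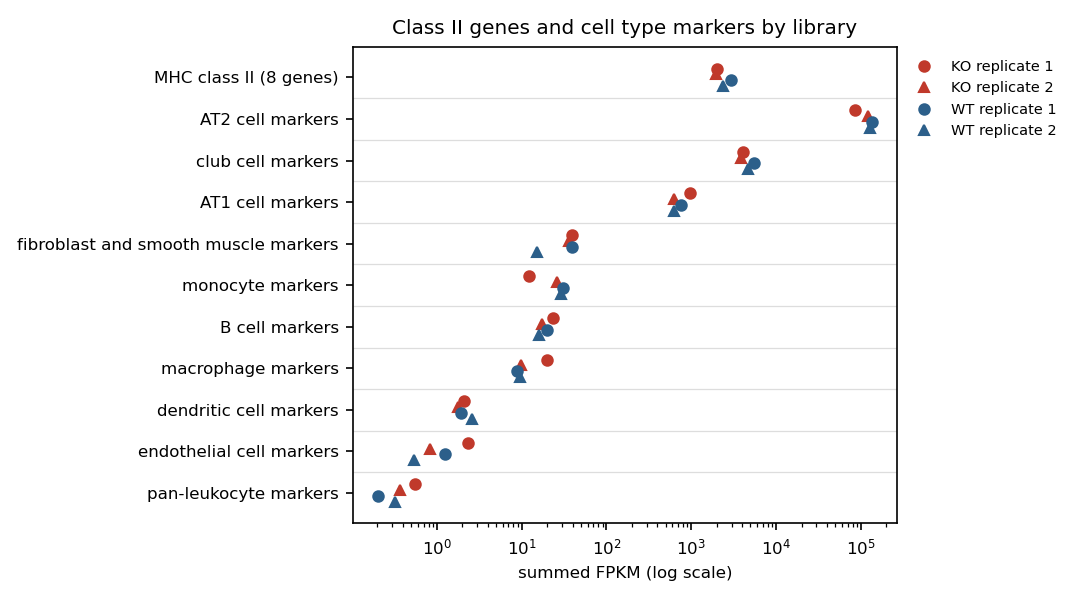
Summed FPKM (horizontal axis, log scale) of the 8 class II genes and of each marker list in the KO (red) and WT (blue) libraries, with circles for replicate 1 and triangles for replicate 2. The class II sum lies between 1973 and 2928 FPKM, and pan-leukocyte and endothelial markers lie at 2.33 FPKM or less in each library. T and NK cell markers, at 0, cannot be drawn on this scale.

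The factors that act at the X and Y boxes were all transcribed. Of 12 class II regulators tested 0 passed in either direction. By limma 9 lay above and 3 below 0, at a median log2(FPKM + 1) difference of 0.12, while edgeR placed 6 above and 6 below 0. The list also held genes other than X and Y box factors, such as Nlrc5 and Irf8, named after their values were seen. Both lay above 0 by limma and below 0 by edgeR, and Nlrc5 was also counted in the class I list. Over all genes tested, 45.9% lay below 0 with limma and 48.1% with edgeR. Nfya, a subunit of the Y box factor NF-Y, was at 21.1 and 17.2 FPKM in the KO libraries and at 16.8 and 17 FPKM in the WT libraries, and Nfyc, another subunit, at 21.6 and 12.3 FPKM in KO and 18.5 and 17.6 FPKM in WT. Irf1, an interferon-induced activator of the gene for CIITA, was at 40.6 and 28.9 FPKM in KO and 29 and 26.1 FPKM in WT, and Usf1 was at 18.7 and 18.1 FPKM in KO and 22.3 and 19.6 FPKM in WT. Of the X box factor RFX, whose genes were chosen after their values were seen, Rfx5 was at 12.6 and 18.3 FPKM in KO and 14.4 and 15.3 FPKM in WT. Rfxap was at 6.72 and 5.78 FPKM in KO and 3.71 and 5.75 FPKM in WT, and Rfxank at 3.03 and 1.85 FPKM in KO and 4.25 and 3.36 FPKM in WT. Rfxap lay above and Rfxank below WT in both KO libraries, at limma adjusted p of 0.948 each. Among all genes tested, 20% lay above and 15.1% below in the same way. For Rfxap, KO replicate 2 and WT replicate 2 were nearly level. Of 12 tested genes of interferon gamma signalling, which induces Ciita, 0 passed in either direction, 9 lay above 0 and the median was 0.23, while edgeR tested 14, placed 8 above and 6 below 0 and gave a median of 0.098. Their most abundant were Jak1 (40 and 34.6 FPKM in KO, 29.9 and 29.8 FPKM in WT), Irf1, Ifngr1 (18.9 and 30.1 FPKM in KO, 24.3 and 21.5 FPKM in WT) and Jak2 (17.3 and 27 FPKM in KO, 18.1 and 18.2 FPKM in WT).

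Of 10 tested processing genes 0 passed in either direction, 7 lay above and 3 below 0, and the median was 0.10. Over all genes tested by limma, 45.9% lay below 0. Cathepsin C (Ctsc) was at 488 and 574 FPKM in the KO libraries and 544 and 568 FPKM in the WT libraries. Cathepsin H (Ctsh) was at 603 and 399 FPKM in KO and 440 and 405 FPKM in WT, with the 3 other libraries close together below KO replicate 1. The thiol reductase Ifi30, which unfolds disulfide-bonded antigens, was at 137 and 84.2 FPKM in KO and 96.9 and 98.4 FPKM in WT, and cathepsin D (Ctsd) at 111 and 90.8 FPKM in KO and 95.9 and 82.2 FPKM in WT. Cathepsin S (Ctss), the main invariant chain protease of professional antigen-presenting cells and chosen after its values were seen, was listed at 0 in both KO libraries and WT replicate 2 and had 1 fragment in WT replicate 1. At this depth 3 fragments are 0.316 and 0.425 CPM in the KO libraries and 0.72 and 0.366 CPM in the WT libraries, the level that a count of 0 allows.

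Turnover and traffic genes, 8 rows tested, had 0 past the test, 6 above and 2 below 0 and a median of 0.16, while edgeR placed 4 above and 4 below 0. Over all genes tested, 45.9% lay below 0 with limma and 48.1% with edgeR. March8, a ubiquitin ligase that can remove class II molecules from the surface and was matched by identifier, was at 41.6 and 33.2 FPKM in the KO libraries and 24.2 and 26 FPKM in the WT libraries. Its log2(FPKM + 1) difference was 0.55 (limma adjusted p = 0.948), but on recovered fragments it was -0.13 (edgeR adjusted p = 0.999), the opposite direction. March1, its relative in dendritic and B cells, was listed at 0 in all 4 libraries and was chosen after its values were seen. Lamp1 was at 256 and 294 FPKM in KO and 285 and 277 FPKM in WT, Cltc at 145 and 118 FPKM in KO and 97 and 103 FPKM in WT, and Rab7 at 121 and 119 FPKM in KO and 105 and 111 FPKM in WT. Of the genes for ligands and partners of CD74, 3 were tested and 0 passed, with 1 above 0 and a median of -0.16. Mif, a ligand of CD74, was at 29.8 and 44.9 FPKM in KO and 48 and 41.8 FPKM in WT, its relative Ddt at 51.8 and 62 FPKM in KO and 55.7 and 52.6 FPKM in WT, and the co-receptor Cd44 at 40 and 53 FPKM in KO and 50.3 and 52.5 FPKM in WT. Cxcr4 was below 0.3 FPKM in each library.

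Co-stimulatory ligands were scarce. Of 8 genes 1 was tested, Icam1, an adhesion molecule, at 122 and 126 FPKM in the KO libraries and 117 and 123 FPKM in the WT libraries, with a log2(FPKM + 1) difference of 0.047 (limma adjusted p = 0.985). Icosl was at 1.58 and 0.426 FPKM in KO and 0.615 and 0.273 FPKM in WT, and Cd40 and Cd274 were below 1 FPKM in each library. Cd86, chosen after its values were seen, was listed at 0 in all 4 libraries.

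The genes whose centred log2(FPKM + 1) values lay nearest to the mean centred profile of the 8 members over the 4 libraries, among 5664 genes averaging 10 FPKM or more, were Ltbp3, H2-T23 and Epha2. Their root mean square distances were 0.021, 0.032 and 0.039, against 0.146 for Cd74, the nearest member, and 0.587 for H2-DMb2, the farthest. With 4 libraries, such likeness is a description. H2-T23, a non-classical class I gene, was at 28.2 and 29.8 FPKM in the KO libraries and 38.2 and 31.4 FPKM in the WT libraries.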

How the data were processed

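Per the submitters' processing notes, the tools were cutadapt 1.9.3, HISAT2 2.0.4, Cufflinks and Cuffdiff 2.2.1 with build mm10; the sources used here give no parameters, annotation release or handling of multiply mapped reads. Per the labels' protocols, stranded libraries were prepared from 1 µg of total RNA after removal of ribosomal RNA, and read for 150 cycles. Each library has FPKM deposited by the authors, and estimated counts deposited by the authors, most of which are multiples of 1 constant per library. Dividing by that constant made 90.9% to 92.6% of positive values whole within 0.05. All values so divided, the others included, were rounded to whole numbers and are called recovered fragments.

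Differences, KO minus WT, were tested on log2(FPKM + 1) by limma-trend without covariates (R 4.3.3, limma 3.58.1). This understates differences of low genes. edgeR 4.0.16 (quasi-likelihood, TMM) and DESeq2 1.42.0 were run on recovered fragments as alternatives; all were tested on simulated data. CPM scales recovered fragments to library size. Members and lists were chosen with earlier results of these data known. Up to 4 genes per list are named, by highest mean FPKM; 3 further genes are named by likeness to the members' mean profile; others are said to be chosen later. Table symbols that had become dates or are older were matched by Ensembl identifier.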

Additional observations from a re-analysis of the deposited data

How the results depend on the processing

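With 2 libraries a group, single libraries set most values. The members' median log2 difference was -0.22 with limma and moved by more than the spread between replicates to -0.39 with edgeR, edgeR without a filter, edgeR with DESeq2 size factors and DESeq2, and stayed below 0 in all 22 alternatives. Leaving out 1 library gave medians from -0.46 to -0.23 with limma and -0.47 to -0.36 with edgeR (-0.44 without KO replicate 1 and -0.44 without WT replicate 2). The count of genes called over the table, 0 with limma, was 5 with edgeR without a filter, 2 with edgeR and the replicate block, 7 with DESeq2, 0 to 134 with limma on 3 libraries (134 without KO replicate 2, 3 without WT replicate 2) and 1 to 1435 with edgeR on 3 libraries (116 without KO replicate 1, 1435 without KO replicate 2). The count of members called was 0 except with edgeR without KO replicate 2, where 3 were (H2-Ab1, Cd74 and Ciita, adjusted p from 0.0241 to 0.0443) beside 11.7% of all genes; leave-one-out counts ran from 0 to 3. The lone library of a group is there assumed to vary like the other pair, and the cause was not tested.

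Leaving out 1 library turned the direction of 5 members. Ranges over limma and edgeR were -0.36 to 0.49 for H2-Aa (limma -0.11 and edgeR -0.22 without KO replicate 1; -0.36 and -0.31 without WT replicate 2), -0.98 to 0.58 for H2-Eb1 (limma 0.55, edgeR 0.58 without WT replicate 1), -0.55 to 0.92 for H2-DMb1 (-0.017 and -0.081 without KO replicate 1; -0.55 and -0.41 without WT replicate 2), -1.30 to 0.44 for H2-DMb2 (limma -0.96 without WT replicate 1; 0.38 and 0.44 without WT replicate 2) and -0.64 to 0.15 for Ciita (limma -0.60 without KO replicate 2; 0.15 and 0.097 without KO replicate 1). H2-Ab1, Cd74 and H2-DMa were below 0 in all 22 alternatives. Leaving out 1 library in limma could not change their sign, since both KO values lay below both WT values. Dropping the mean-variance trend, array weights and the replicate block left the limma difference itself the same (-0.70 for H2-Ab1), so the alternatives are not separate tests. Replicate numbers are not shown to pair libraries: the replicate 1 minus 2 differences of KO and WT correlated at 0.026 over 11055 genes, and with the replicate block the limma count of genes called was 0 and the members' median -0.22. H2-DMb2 was not tested at the 5 FPKM filter.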

Other observations

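H2-Ob, which encodes a chain of the DM inhibitor DO and whose promoter window holds an X box pattern followed by a Y box pattern within 50 bases, was listed at 0 FPKM in all 4 libraries, as was its partner H2-Oa. H2-Eb2, a further class II beta gene, had 1 and 3 fragments in the KO libraries and 7 and 17 in the WT libraries. Both KO values were below both WT values, the edgeR unadjusted p was 0.0353 and the edgeR adjusted p was 0.999. Of the 11705 genes tested by edgeR, 16.9% had both KO values in CPM below both WT values, and 3.18% had an unadjusted p under 0.05. H2-Eb2 was below 1 FPKM in each library and was not tested by limma.

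Genes of the class I pathway, whose molecules present cytosolic peptides, also lay mostly below WT. The list holds class I chains and B2m beside processing genes such as Tap1, Tap2 and Psmb8. Of 16 tested, 13 were below 0 with limma, against 45.9% of all genes tested, and 16 with edgeR, against 48.1%. The medians were -0.25 with each, and 0 passed in either direction. B2m, the class I light chain, was at 193 and 148 FPKM in the KO libraries, against 256 and 274 FPKM in the WT libraries (limma adjusted p = 0.948). H2-K1 was at 238 and 257 FPKM in KO and 362 and 242 FPKM in WT, and Tapbp at 71.3 and 71 FPKM in KO and 82.5 and 65.2 FPKM in WT. H2-D1 ran the other way in WT, at 416 and 340 FPKM in KO and 327 and 459 FPKM in WT, with WT replicate 1 the lowest of the 4.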
